A study of Mus musculus with 9 samples.

Results

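The Fc gamma receptor genes comprised Fcgr1, Fcgr2b, Fcgr3, Fcgr4 and Fcgrt, 5 of the 55274 gene identifiers in the expression tables, and were chosen by their gene symbols. RNA was sequenced from 9 cultures of mouse bone marrow cells in 3 groups of 3 libraries. The cells came from female C57BL/6J mice aged 6 to 8 weeks that had received 5-fluorouracil at 150 mg/kg, which depletes dividing cells, and whose marrow was taken 4 days later. All groups were stimulated for 48 h and grown with human IL-6, murine IL-3 and murine SCF. Retroviral MSCV vectors delivered the activated RAS allele NRASG12D together with the blue fluorescent protein BFP, the fusion gene NUP98-NSD1 together with the green fluorescent protein GFP, or both vectors (NUP98-NSD1+NRASG12D, here called double-transduced), and cells were sorted for these colours and then expanded. A group with an empty vector was not analysed here. Each culture was a mixed population in which fewer cells of a type and less RNA per cell cannot be told apart. The labels do not say whether the 3 replicates of a group came from separate mice or transductions, so p-values measure the spread between these libraries, which may be technical.

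Fc gamma receptors bind the constant part of IgG antibodies and let myeloid cells respond to antibody-coated particles. In the mouse, Fcgr1, Fcgr3 and Fcgr4 encode activating receptors that signal through the common gamma chain Fcer1g, whereas Fcgr2b encodes the inhibitory receptor, whose cytoplasmic tail recruits the phosphatase encoded by Inpp5d. Mouse mast cells are known to carry the low-affinity receptors of Fcgr2b and Fcgr3, while the high-affinity receptor of Fcgr1 and the receptor of Fcgr4 are typical of monocytes, macrophages and, for Fcgr4, neutrophils. Fcgrt encodes the neonatal Fc receptor, an MHC class I-like chain that pairs with B2m and returns IgG from endosomes to the surface.

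Levels are given in FPKM, fragments scaled to transcript length and to library depth, so genes can be compared per length. From the step between low values, library depth was estimated at 23450000 to 37200000 fragments. Nras was at 348 to 479 FPKM in the NRASG12D libraries, at 47.7 to 51.2 in the NUP98-NSD1 libraries and at 245 to 701 in the libraries carrying both vectors, so the labels matched the transduced NRAS gene. Nup98 and Nsd1 do not show the fusion separately from the endogenous genes. Group comparisons used limma on log2(FPKM + 1), and a gene was called when its p-value, adjusted by the Benjamini-Hochberg method over 13493 tested genes, was under 0.05. All 5 receptor genes passed the filter of 1 FPKM or more in 3 or more libraries, but Fcgr1, Fcgr4 and Fcgrt had no NRASG12D library at this level. The 3 comparisons share libraries and are not independent of each other.

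Of the 5 genes, 4 were higher in NUP98-NSD1 than in NRASG12D cells and 4 were higher in double-transduced than in NRASG12D cells, namely Fcgr1, Fcgr2b, Fcgr4 and Fcgrt in each case. Of all tested genes, 52.1% were called in the first of these comparisons, 42.2% higher and 9.98% lower, and 38.3% in the other, 24.2% higher and 14.1% lower. Between double-transduced and NUP98-NSD1 cells, Fcgr4 alone was called, where 8.61% of all tested genes were called, 2.3% higher and 6.31% lower. In that comparison, all 5 genes nevertheless had their 3 double-transduced libraries above the 3 NUP98-NSD1 libraries, a pattern that 11.6% of all tested genes showed, while 19.8% showed its reverse and 31.4% either. For the comparisons with NRASG12D cells, the same pattern held for 4 of the 5 genes, where 50.7% and 38.7% of all tested genes showed it, 13.5% and 19.9% showed its reverse, and 64.2% and 58.6% either. The median difference of the 5 genes on the log2 scale was 1.67 for NUP98-NSD1 against NRASG12D, 3.77 for double-transduced against NRASG12D and 1.32 for double-transduced against NUP98-NSD1, where the medians over all tested genes were 0.27, 0.23 and -0.06. Fcgr1, Fcgr4 and Fcgrt passed the filter only through libraries of the other groups. Against NRASG12D cells the filter thus favoured a rise in these genes, so the counts and medians there do not test its direction.

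**Figure D1:**
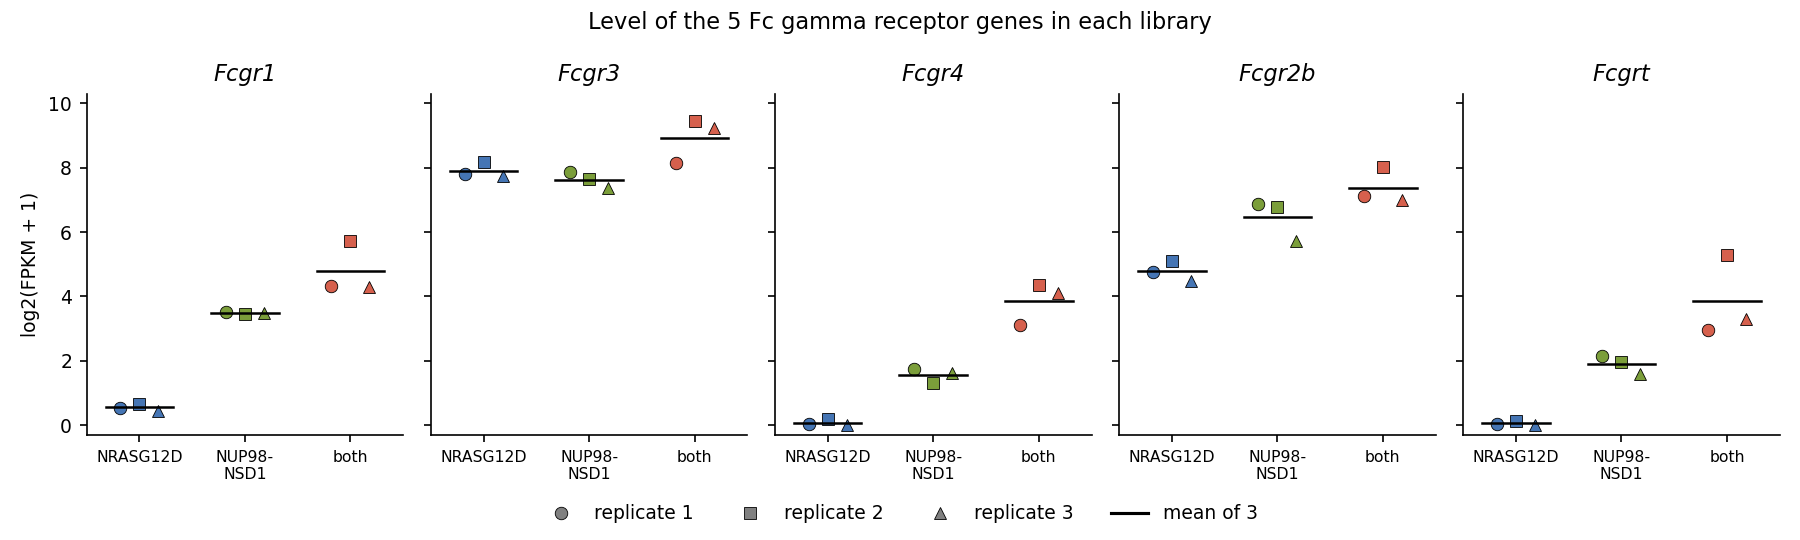
Expression of the 5 genes as log2(FPKM + 1) on the vertical axis, with a panel per gene and a point per library (circle, square and triangle for replicates 1, 2 and 3) and a bar for the mean of 3; "both" stands for NUP98-NSD1+NRASG12D. Fcgr1, Fcgr2b, Fcgr4 and Fcgrt step up from NRASG12D to NUP98-NSD1 to both vectors, whereas the NRASG12D and NUP98-NSD1 points of Fcgr3 overlap, and replicate 2 is the highest of the libraries with both vectors in every panel.

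**Figure D2:**
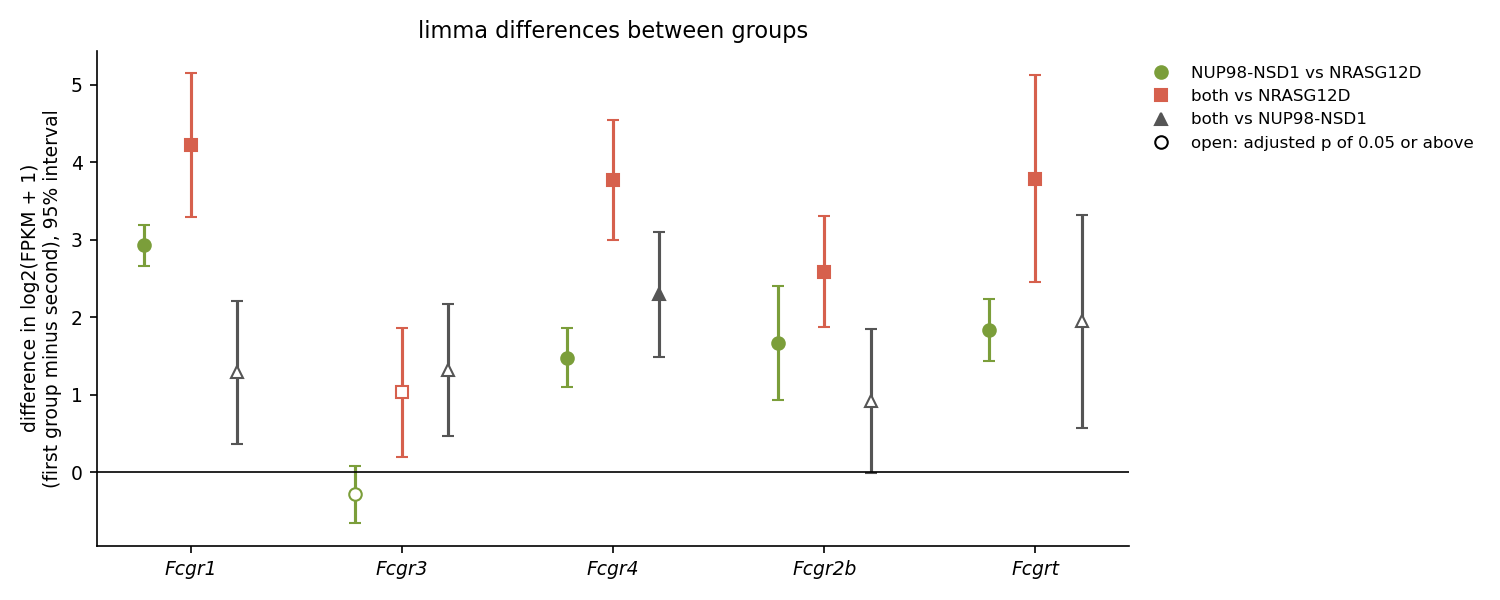
Differences between groups in log2(FPKM + 1) from limma with 95% confidence intervals, for the 5 genes in 3 comparisons; filled symbols have an adjusted p under 0.05 and open symbols do not. Filled symbols mark 4 genes in each comparison with NRASG12D cells and Fcgr4 in the comparison of both vectors with NUP98-NSD1.

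Fcgr1 (chr3:96282909-96293969, minus strand, GRCm38) encodes the receptor that binds single IgG molecules with high affinity. Its level was 0.464, 0.589 and 0.359 FPKM in the 3 NRASG12D libraries, 10.5, 9.91 and 10.2 in the NUP98-NSD1 libraries and 18.8, 52.2 and 18.5 in the double-transduced libraries. The groups did not overlap, and the NUP98-NSD1 libraries lay close together. Fcgr1 was 2.93 log2 units higher in NUP98-NSD1 than in NRASG12D cells (SE 0.11, limma adjusted p = 2.82e-05). In double-transduced cells it was 4.22 units above NRASG12D cells (SE 0.39, limma adjusted p = 0.00038). With a pseudocount of 0.1 in place of 1, these differences were 4.19 and 5.55. The further difference of 1.29 between double-transduced and NUP98-NSD1 cells (SE 0.39, 95% interval 0.37 to 2.21) was not called (limma adjusted p = 0.0916). Without double-transduced replicate 2 it was 0.81 and was called (limma adjusted p = 0.0306).

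Fcgr4 (chr1:171018920-171029761, plus strand), whose receptor binds IgG2 antibodies and IgE in the mouse, had the lowest level of the 4 classical receptor genes in all 9 libraries. It was at 0.0359, 0.146 and 0 FPKM in the NRASG12D libraries, which corresponds to about 1.01, 5.97 and 0 fragments, at 2.38, 1.47 and 2.08 with NUP98-NSD1 and at 7.63, 19.3 and 16.4 FPKM in the double-transduced libraries. Only the second NRASG12D library exceeded the level that 3 fragments give, 0.0736 to 0.115 FPKM in that group, so no fold against NRASG12D cells is given. On the log2(FPKM + 1) scale, Fcgr4 was 1.48 higher in NUP98-NSD1 cells (SE 0.16, limma adjusted p = 0.000943) and 3.77 higher in double-transduced cells (SE 0.33, limma adjusted p = 0.000282) than in NRASG12D cells. With a pseudocount of 0.1 these became 3.77 and 6.50.

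Between double-transduced and NUP98-NSD1 cells, the mean level of Fcgr4 differed 7.30-fold, or 2.30 log2 units (SE 0.34, limma adjusted p = 0.0123). The lowest library with both vectors was at 7.63 FPKM and the highest with NUP98-NSD1 alone at 2.38. The adjusted p ranged from 0.00161 to 0.107 over all alternative settings. It was 0.107 without a filter on low values, 0.0544 without NUP98-NSD1 replicate 2 and 0.0569 without NUP98-NSD1 replicate 3, and the difference was at least 2.05 units in every setting.

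Fcgrt (chr7:45092990-45103851, minus strand) was at 0.0333, 0.0887 and 0 FPKM in the NRASG12D libraries, or about 1.36, 5.31 and 0 fragments. With NUP98-NSD1 it was at 3.42, 2.89 and 2.01 FPKM and at 6.75, 37.7 and 8.91 in the double-transduced libraries. The groups did not overlap, and the second library with both vectors was 5.58 times as high as the first. Fcgrt was 1.84 log2 units higher in NUP98-NSD1 than in NRASG12D cells (SE 0.17, limma adjusted p = 0.000555) and 3.79 units higher in double-transduced cells (SE 0.57, limma adjusted p = 0.00252), or 4.37 and 6.61 with a pseudocount of 0.1. The difference of 1.95 between double-transduced and NUP98-NSD1 cells (SE 0.58, limma adjusted p = 0.0892) was not called. Without double-transduced replicate 2 this difference was 1.24 (limma adjusted p = 0.0384) and without replicate 1 it was 2.39 (limma adjusted p = 0.0411), and both were called.

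Fcgr2b (chr1:170958617-170976547, minus strand) was already measurable in NRASG12D cells, at 26.2, 33.3 and 21.4 FPKM. Its level was 115, 110 and 51.6 FPKM in the NUP98-NSD1 libraries and 138, 256 and 127 in the double-transduced libraries. The groups did not overlap, and the third NUP98-NSD1 library was the lowest of its group. The mean of the inhibitory receptor was 3.41-fold higher in NUP98-NSD1 than in NRASG12D cells (1.67 log2 units, SE 0.31, limma adjusted p = 0.00519) and 6.43-fold higher in double-transduced cells (2.59 units, SE 0.30, limma adjusted p = 0.000918). The difference of 0.92 between double-transduced and NUP98-NSD1 cells (SE 0.39, 95% interval -0.01 to 1.85) was not called (limma adjusted p = 0.208).

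Fcgr3 (chr1:171051174-171064935, minus strand), the low-affinity activating receptor, had the highest level of the 5 genes in all 9 libraries. It was at 222, 285 and 215 FPKM in the NRASG12D libraries, 229, 198 and 164 in the NUP98-NSD1 libraries and 281, 691 and 598 in the double-transduced libraries. The NRASG12D and NUP98-NSD1 libraries overlapped, and the first library with both vectors lay just below the highest NRASG12D library. NUP98-NSD1 and NRASG12D cells differed by -0.29 log2 units (SE 0.16, 95% interval -0.66 to 0.08, limma adjusted p = 0.163). The median of all tested genes was 0.27 in this comparison. Fcgr3 was called lower after median-ratio scaling (-0.62, limma adjusted p = 0.00738) and after quantile normalization (-0.56, limma adjusted p = 0.0107).

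The difference of 1.03 units in Fcgr3 between double-transduced and NRASG12D cells, 2.18-fold in the means, missed the threshold (SE 0.35, limma adjusted p = 0.0549), and its adjusted p ranged from 0.00256 to 0.234 over the alternatives. It was called when all 9 libraries shared a fit (limma adjusted p = 0.0251), with array weights (0.00458), with the replicate number as a block (0.04) and without double-transduced replicate 1 (1.43 units, 0.00256). Against NUP98-NSD1 cells the difference was 1.32 units (SE 0.36, 95% interval 0.47 to 2.17), with no overlap between the groups, and was not called (limma adjusted p = 0.0689). Without double-transduced replicate 1 it was 1.71 and was called (limma adjusted p = 0.00872). For single genes, two-sided exact permutation tests of 3 libraries against 3 gave the smallest p they allow, 0.1, wherever the groups did not overlap.

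The genes kept nearly the same order of levels in the 3 groups. In NRASG12D cells the levels per length ran from Fcgr3 through Fcgr2b to Fcgr1, with Fcgr4 and Fcgrt near the level of a few fragments and not separable from each other. In NUP98-NSD1 cells the order was Fcgr3, Fcgr2b and Fcgr1, followed by Fcgrt and Fcgr4, whose libraries overlapped. In double-transduced cells Fcgr3 and Fcgr2b again led, and the ranges of Fcgr1, Fcgrt and Fcgr4 overlapped between libraries, although Fcgr1 was above both Fcgrt and Fcgr4 within each of the 3 libraries.

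As Fcgr2b and Fcgr3 share sequence, their levels can be separated less sharply than those of the other genes. The coding sequences of Fcgr2b and Fcgr3 were equal at 85.6% of 785 aligned bases. Of the stretches of 50 bases in the transcripts of Fcgr3, the length of a read, 9.58% (166 of 1733) also occurred in Fcgr2b, whereas no stretch of Fcgr1, Fcgr4 or Fcgrt occurred in another gene. The longest stretch common to both coding sequences had 129 bases and is printed here, read from the GENCODE transcripts, because a single read inside it matches both genes alike. It covers coding bases 278 to 406 of Fcgr2b (chr1:170966674-170968081, minus strand, across 2 exons) and 263 to 391 of Fcgr3 (chr1:171054167-171057792, minus strand, across 2 exons). The next 60 bases of each gene follow it, with the 1 base that differs in capitals.
Fcgr2b and Fcgr3, common run: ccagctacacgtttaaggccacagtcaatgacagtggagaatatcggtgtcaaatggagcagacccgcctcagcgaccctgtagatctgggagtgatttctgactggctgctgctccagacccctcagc
Fcgr2b, next bases: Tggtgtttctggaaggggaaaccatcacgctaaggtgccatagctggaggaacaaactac
Fcgr3, next bases: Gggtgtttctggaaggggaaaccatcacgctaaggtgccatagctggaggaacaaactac
How reads with several alignments were counted is not given in the sources used here. An antisense gene, Gm38204, overlaps Fcgr2b and was at 0 to 0.444 FPKM in the 9 libraries, and Gm45669 on the opposite strand of Fcgrt was at 0 to 0.127 FPKM. Without strand information, reads of these genes and of the receptor genes cannot be told apart.

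The balance of activating to inhibitory receptor differed between the groups and does not depend on the scaling of libraries, since it was formed within each library. The ratio of Fcgr3 to Fcgr2b in FPKM was 8.45, 8.55 and 10.0 in the NRASG12D libraries, 2.00, 1.81 and 3.17 in the NUP98-NSD1 libraries and 2.03 to 4.70 in the double-transduced libraries. All 3 NRASG12D libraries lay above the other 6, and the other groups overlapped. Adding Fcgr1 and Fcgr4 to the activating side changed little, with ratios of 8.47 to 10.0, 1.91 to 3.41 and 2.22 to 4.97. Fcgr3 made up 89.2% to 90.8% of the summed FPKM of the 4 classical genes in NRASG12D cells, 62.1% to 71.9% in NUP98-NSD1 cells and 63.1% to 78.7% in double-transduced cells. The share of Fcgr2b was 9.07% to 10.6%, 22.7% to 34.3% and 16.7% to 31.0%. Fcgr1 accounted for at most 5.13% and Fcgr4 for at most 2.16% in any library. The summed level of the 4 genes was 236 to 319 FPKM for NRASG12D, 228 to 357 for NUP98-NSD1 and 445 to 1019 in double-transduced cells, so that the first 2 groups overlapped and the last lay above both.

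**Figure D3:**
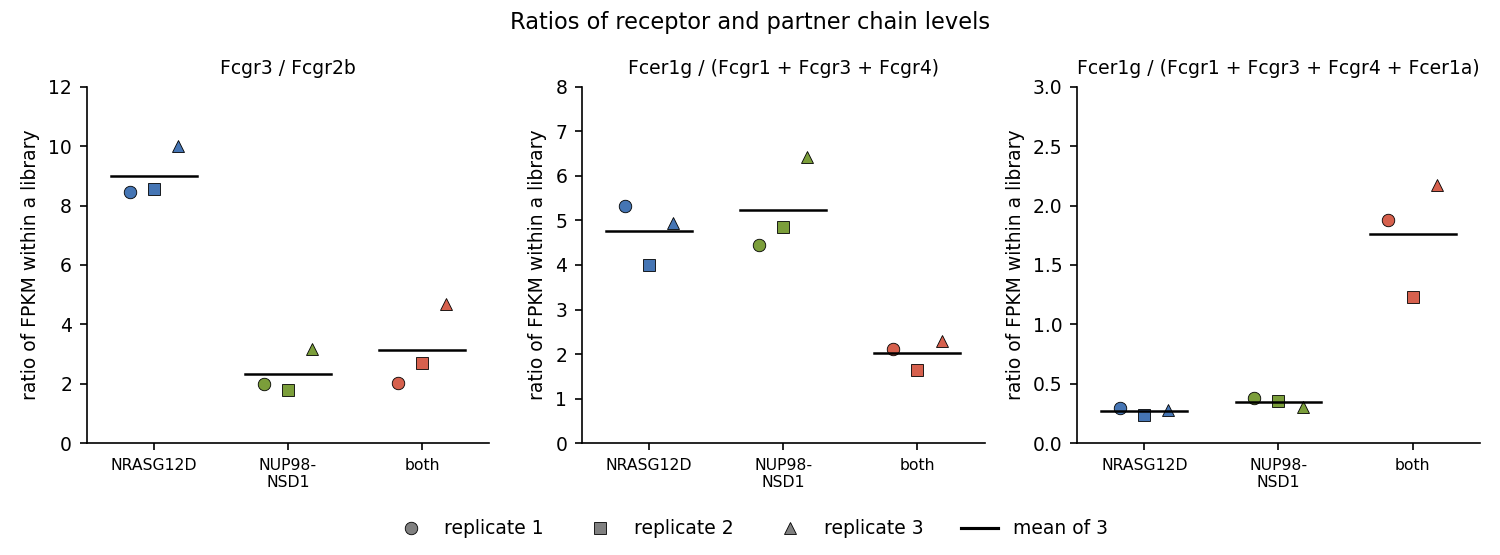
Ratios of FPKM formed within each library, with a point per library and a bar for the mean of 3; "both" stands for NUP98-NSD1+NRASG12D. The ratio of Fcgr3 to Fcgr2b is 8.45 to 10.0 in NRASG12D cells and at most 4.70 elsewhere, and Fcer1g relative to the activating receptors is lowest with both vectors, an order that turns when the IgE receptor chain Fcer1a is added to the denominator.

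Fcer1g, the signalling chain shared by the activating Fc gamma receptors and the IgE receptor, was at 1182, 1140 and 1062 FPKM in NRASG12D cells, 1077, 1018 and 1128 in NUP98-NSD1 cells and 652, 1251 and 1458 in double-transduced cells. These groups overlapped, and limma adjusted p-values were 0.543, 0.842 and 0.986 for the 3 comparisons. After median-ratio scaling, Fcer1g was called lower with NUP98-NSD1 than with NRASG12D (-0.41, limma adjusted p = 0.0188). Relative to the summed FPKM of Fcgr1, Fcgr3 and Fcgr4, Fcer1g stood at 5.32, 3.99 and 4.94 in NRASG12D, 4.45, 4.86 and 6.41 in NUP98-NSD1 and 2.12, 1.64 and 2.30 in double-transduced libraries. All libraries with both vectors were therefore below the other 6 in this ratio.

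The IgE receptor, which also uses Fcer1g, went the other way. Fcer1a, the IgE-binding chain, was at 3717, 4435 and 3538 FPKM in NRASG12D cells, 2559, 2672 and 3465 in NUP98-NSD1 cells and 40.3, 254 and 39.1 in double-transduced cells. It fell by 5.69 log2 units from NRASG12D to double-transduced cells (limma adjusted p = 0.00108), and Ms4a2, the beta chain of the same receptor, fell by 5.33 (limma adjusted p = 0.001). With Fcer1a added to the activating receptors, Fcer1g stood at 0.242 to 0.300 for NRASG12D, 0.310 to 0.385 for NUP98-NSD1 and 1.23 to 2.17 in double-transduced libraries. B2m, the partner of Fcgrt, was at 743 to 793, 892 to 1013 and 1103 to 3108 FPKM in the 3 groups. Its difference of 0.30 between NUP98-NSD1 and NRASG12D cells was called (limma adjusted p = 0.0251) but became -0.04 after median-ratio scaling, and the difference of 1.14 between double-transduced and NRASG12D cells was not called (limma adjusted p = 0.0534). Of the 4 partner chains listed, Cd247 had too low a level to be tested.

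Among 12 other Fc receptor genes, 4 could be tested. Fcrls and Fcrl1, members of the Fc receptor-like family, were higher in double-transduced than in NRASG12D cells, by 3.79 (limma adjusted p = 0.0144) and 1.67 (limma adjusted p = 0.000534) log2 units. Fcrls was at 0.0374 to 0.157 FPKM in NRASG12D cells and at 3.67, 65.4 and 10.2 in double-transduced cells. The remaining receptor, Trim21, which binds antibodies in the cytosol, was at mean levels of 1.14, 0.867 and 1.04 FPKM in the 3 groups and was not called in any comparison.

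Genes that carry the signal of activating Fc receptors moved in both directions. Of 15 tested genes, 5 were higher and 7 lower with NUP98-NSD1 than with NRASG12D, with a median difference of -0.16 against 0.27 for all tested genes. In double-transduced cells, again 5 were higher and 7 lower than in NRASG12D cells (median -0.30 against 0.23). The shares over all tested genes were 42.2% higher and 9.98% lower in the first comparison, and 24.2% higher and 14.1% lower in the other. Fgr, a SRC family kinase of myeloid cells, was at 0 to 0.0843 FPKM in NRASG12D cells, 2.13 to 5.32 with NUP98-NSD1 and 7.06 to 11.4 in double-transduced cells, and rose by 3.30 log2 units from the first to the last (SE 0.20, limma adjusted p = 0.000101). Lat, the membrane adaptor of T cells and mast cells, fell most, from 419 to 486 FPKM through 173 to 289 to 7.81 to 42.7. Its difference between NRASG12D and double-transduced cells was -4.74 (SE 0.55, limma adjusted p = 0.000944), and Lat2, a relative of Lat, fell by 2.31. After median-ratio scaling, 3 genes were higher and 10 lower with NUP98-NSD1 than with NRASG12D. The kinase Syk, which binds the phosphorylated gamma chain, was then no longer called in either comparison with NRASG12D cells (0.01 and 0.47).

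The inhibitory signal genes were split too. Of 9 tested genes, 3 were higher and 3 lower with NUP98-NSD1 than with NRASG12D (median 0.15), and 3 were higher and 2 lower in double-transduced cells (median 0.20). The shares over all tested genes were 42.2% higher and 9.98% lower, and 24.2% higher and 14.1% lower. Dok2, an adaptor that dampens RAS signals, had the largest rise, 2.60 (limma adjusted p = 0.00157), from 10.2 to 13.6 FPKM in NRASG12D cells to 45.1 to 117 in double-transduced cells. Inpp5d, the lipid phosphatase that Fcgr2b recruits, had the largest fall, -1.87 (limma adjusted p = 0.000901), from 162 to 191 FPKM to 39.2 to 65.4. Fcgr2b and Inpp5d therefore differed from NRASG12D cells in opposite directions.

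**Figure D4:**
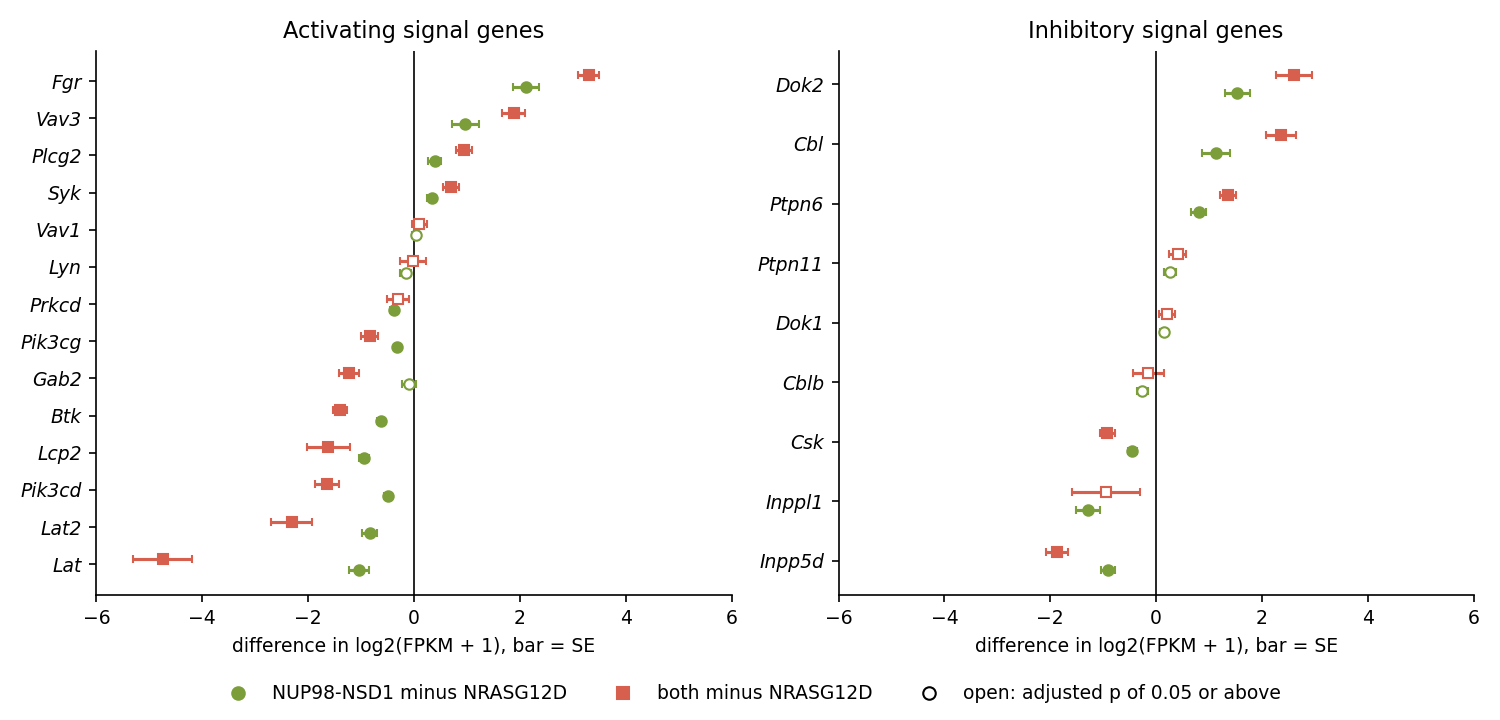
Differences from NRASG12D cells in log2(FPKM + 1) on the horizontal axis, with bars for the SE, for 14 of the 15 activating and all 9 inhibitory signal genes; circles are NUP98-NSD1 and squares are cells with both vectors, and open symbols have an adjusted p of 0.05 or above. Fgr and Dok2 are the highest plotted and Lat and Inpp5d the lowest in their panels for cells with both vectors.

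Of 14 genes of the actin machinery of phagocytosis, 2 were higher and 2 lower in each comparison with NRASG12D cells, with median differences of 0.02 and 0.10. The shares over all tested genes were 42.2% higher and 9.98% lower with NUP98-NSD1, and 24.2% higher and 14.1% lower in double-transduced cells. Actr3, a subunit of the Arp2/3 complex, rose by 1.37 in double-transduced cells (limma adjusted p = 0.000621), and the small GTPase Rac2 fell by 0.87 (limma adjusted p = 0.026). Median-ratio scaling gave 1 gene higher and 9 lower in NUP98-NSD1 cells.

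Regulators linked to Fc gamma receptor expression showed calls in 1 direction. Of 5 genes tested, 3 were higher in NUP98-NSD1 and all 5 in double-transduced than in NRASG12D cells, or 3 of 5 in the latter after either scaling. Over all tested genes, 42.2% were higher and 9.98% lower in NUP98-NSD1 cells, and 24.2% higher and 14.1% lower in double-transduced cells. With 5 genes, the count in NUP98-NSD1 cells cannot be set apart from these shares. Spi1, which encodes the myeloid transcription factor PU.1, was at 76.4, 81.3 and 72.6 FPKM in NRASG12D cells, 192, 157 and 108 in NUP98-NSD1 cells and 269, 235 and 274 in double-transduced cells. These groups did not overlap, with differences of 0.94 (limma adjusted p = 0.00745) and 1.74 (limma adjusted p = 0.000248) from NRASG12D cells. Ifngr2, a chain of the interferon gamma receptor, whose ligand induces Fcgr1, rose from 2.65 to 4.57 FPKM in NRASG12D cells to 19.3 to 45.6 and 67.8 to 93.5 FPKM, or by 2.79 and 4.12 log2 units. Irf1, a transcription factor that interferon gamma induces, was 0.53 higher in double-transduced than in NRASG12D cells (limma adjusted p = 0.0477) and was not called after median-ratio scaling (0.31).

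The promoters of Fcgr1, Fcgr3 and Fcgr4 are shown because each holds the letters GAGGAAG, a form of the sequence bound by PU.1, on the strand opposite to the one printed. The sequences are the 250 bases before the RefSeq start on GRCm38.p6, written 5′ to 3′ in the direction of the gene, with the match in capitals. In Fcgr1 a match to TTCNNNGAA, the sequence bound by STAT dimers, is also in capitals.
Fcgr1, chr3:96293970-96294219, minus strand: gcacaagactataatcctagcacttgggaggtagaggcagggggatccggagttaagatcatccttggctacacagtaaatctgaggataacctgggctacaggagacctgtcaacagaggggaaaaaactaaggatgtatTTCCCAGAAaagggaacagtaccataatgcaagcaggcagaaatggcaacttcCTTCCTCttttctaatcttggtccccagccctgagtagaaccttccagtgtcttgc
Fcgr3, chr1:171059404-171059653, minus strand: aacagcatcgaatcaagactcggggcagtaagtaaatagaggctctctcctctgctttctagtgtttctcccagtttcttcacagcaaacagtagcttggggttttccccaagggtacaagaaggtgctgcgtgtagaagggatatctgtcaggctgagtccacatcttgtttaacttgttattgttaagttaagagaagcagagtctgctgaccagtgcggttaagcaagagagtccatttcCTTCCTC
Fcgr4, chr1:171018676-171018925, plus strand: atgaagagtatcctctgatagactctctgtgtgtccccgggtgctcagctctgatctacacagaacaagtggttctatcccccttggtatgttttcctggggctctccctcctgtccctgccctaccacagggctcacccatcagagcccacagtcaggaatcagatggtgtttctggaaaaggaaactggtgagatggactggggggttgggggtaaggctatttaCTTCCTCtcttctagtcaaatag
The GAGGAAG match began 56 bases before the start in Fcgr1, 7 in Fcgr3 and 23 in Fcgr4, and the TTCNNNGAA match of Fcgr1 began 109 bases before it. RefSeq has 2 starts for Fcgr3, and the match began 16 bases before the one not printed. Both strands were searched, the 2 matches in Fcgr1 do not overlap, and the motifs were chosen after the sequences had been read. Over 32851 RefSeq windows of the same length, 10.61% held GAGGAAG and 7.02% held TTCNNNGAA. The windows of Fcgr2b, Fcgrt and Fcer1g held neither. Factor binding was not measured, and the part of these motifs in the receptor differences was not tested.

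At each locus, the part of the neighbouring genes called higher with NUP98-NSD1 than with NRASG12D was near that of all tested genes. The counts are too small to set the loci apart in either comparison with NRASG12D cells. Fcgr2b, Fcgr4 and Fcgr3 lie in that order on chromosome 1, and 8 tested genes lie within 200000 bases of them. Of these, 4 were higher and none lower than in NRASG12D cells, both in NUP98-NSD1 and in double-transduced cells, with median differences of 0.36 and 0.54. Over all tested genes, 42.2% were higher and 9.98% lower in NUP98-NSD1 cells, and 24.2% higher and 14.1% lower in double-transduced cells. The 2 nearest genes on the side of Fcgr2b were Gm2962 and Dusp12, which differed by 0.91 and -0.60 between double-transduced and NRASG12D cells (limma adjusted p = 0.0174 and 0.0999). On the side of Fcgr3 they were Sdhc and Pcp4l1, at 0.65 and -0.08 (limma adjusted p = 0.0125 and 0.887). Around Fcgr1, 7 of 15 neighbours were higher and none lower with NUP98-NSD1 than with NRASG12D (median 0.36). Around Fcgrt, 8 of 19 neighbours were higher and 3 lower in that comparison (median 0.20). In double-transduced against NRASG12D cells, 2 of the 15 were higher and 2 lower (median -0.01), and 3 of the 19 were higher and 3 lower (median 0.02). The nearest to Fcgr1 were Hist2h3b (0.58) and Gm38227 (-0.54) on 1 side and Gm9207 (0.06), the sole tested gene, on the other. Near Fcgrt lay Nosip (0.62) and Prrg2 (-0.11) on 1 side and Rpl13a (0.31) on the other, while Fcgr1 and Fcgrt themselves differed by 4.22 and 3.79. Neighbours with wide differences, chosen after their values had been seen, were Flt3l, which encodes a growth factor of blood progenitors, Dkkl1 and Gm20627. Flt3l lies 25937 bases from Fcgrt and fell from a mean of 91.2 FPKM in NRASG12D cells to 37.2 with NUP98-NSD1 and 9.84 in double-transduced cells, or by 3.17 log2 units from the first to the last (limma adjusted p = 0.000451). Dkkl1, 103668 bases from Fcgrt, was 1.73 higher with NUP98-NSD1 (limma adjusted p = 0.00497) and 1.49 higher in double-transduced cells (limma adjusted p = 0.0308). Its mean rose from 0.490 to 3.93 FPKM between NRASG12D and NUP98-NSD1 cells, and that of Fcgrt from 0.0406 to 2.77. At levels this low the added 1 shrinks the differences, so the 1.73 of Dkkl1 and the 1.84 of Fcgrt cannot be compared as folds. Gm20627, near Fcgr1, fell by 2.83 in double-transduced cells (limma adjusted p = 0.000216).

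**Figure D5:**
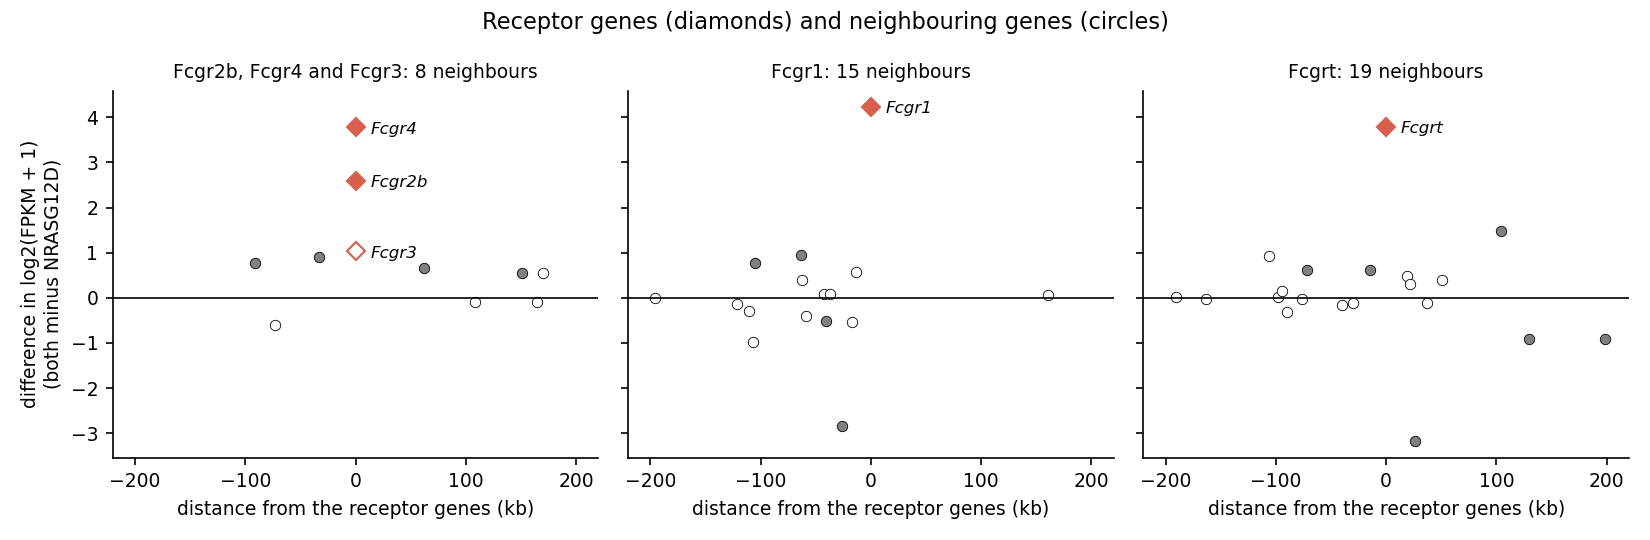
Cells with both vectors (NUP98-NSD1+NRASG12D) minus NRASG12D cells in log2(FPKM + 1) on the vertical axis against the distance in kilobases from the receptor genes, with diamonds for the receptor genes at distance 0 and circles for all tested neighbours; open symbols have an adjusted p of 0.05 or above. The diamonds of Fcgr1, Fcgr4, Fcgrt and Fcgr2b lie above every neighbour in their panel, with values of 4.22, 3.77, 3.79 and 2.59.

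The genes whose profiles lay nearest to each receptor gene were found as the smallest root-mean-square difference of log2(FPKM + 1) over the 9 libraries, after each gene's mean had been subtracted. For Fcgr1 they included Chil1 (0.26) and Mndal (0.27). For Fcgr2b they were Arhgap10 (0.16), Anxa1 (0.25) and Kctd12 (0.26). The profile of Fcgr3 was nearest to Cyp4v3 (0.19), Lyst (0.20) and Sh3bp2 (0.21), that of Fcgr4 to Cd300ld (0.13), Themis2 (0.17) and Lrp1 (0.17), and that of Fcgrt to Gm36161 (0.16), Ppbp (0.26) and Slc37a2 (0.28). No receptor gene was among the 3 nearest genes of another. The closest pair, Fcgr4 and Fcgrt, lay 0.48 apart, and 60 genes were closer to Fcgr4 and 46 closer to Fcgrt than this. The profile of Fcgr3 was 0.92 from Fcgr2b and 1.55 from Fcgr1, the widest gap among the 5 genes.

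Markers of several cell types moved with the receptor genes. The summed FPKM of 11 genes of neutrophils and their precursors was 2.79 to 15.4 in NRASG12D cells, 1366 to 5464 with NUP98-NSD1 and 8476 to 18825 in double-transduced cells, and 10 of the 11 were called higher in each comparison with NRASG12D cells. That of 12 monocyte and macrophage genes was 69.7 to 144, 1783 to 2450 and 5211 to 14333 FPKM, with 10 of 11 tested genes higher in each of these comparisons and 1 lower in the double-transduced cells. Over all tested genes, 42.2% were higher and 9.98% lower in NUP98-NSD1 cells, and 24.2% higher and 14.1% lower in double-transduced cells. Csf1r, the receptor for the macrophage growth factor, had mean levels of 0.464, 31.9 and 95.2 FPKM in the 3 groups, and Ltf and Camp were at 0 in all NRASG12D libraries. The sum of 10 mast cell genes was 30031 to 32639, 26838 to 31852 and 744 to 4336 FPKM, with 5 of the 10 lower in NUP98-NSD1 and 8 lower in double-transduced than in NRASG12D cells, and 3 and 2 higher. Cpa3, a mast cell protease, was listed at 0 in all NRASG12D libraries, where other mast cell genes were high, and a failed estimate cannot be told apart from absence. Without Cpa3, the sum of the other 9 genes was 30031 to 32639 FPKM with NRASG12D, 13680 to 17474 with NUP98-NSD1 and 465 to 2515 in double-transduced libraries, so that the NUP98-NSD1 libraries lay below the NRASG12D libraries, and 2 and 1 genes were higher in the comparisons with NRASG12D cells.

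Markers of lymphocytes were low but not equal between groups. The 6 B cell genes summed to 0.235 to 0.555 FPKM with NRASG12D, 1.23 to 5.65 with NUP98-NSD1 and 0.231 to 9.19 in double-transduced libraries. Their sole tested gene, Cd79b, a chain of the B cell receptor complex, was 1.76 higher in NUP98-NSD1 than in NRASG12D cells (limma adjusted p = 0.00939), at mean levels of 3.19 and 0.101 FPKM, and its difference of 1.48 between double-transduced and NRASG12D cells was not called (limma adjusted p = 0.133). Summed levels were at most 2.38 FPKM for 5 natural killer cell genes and 0.350 for 5 T cell genes in any library, and dendritic cell genes reached 11.5 FPKM. The sums of 4 eosinophil genes were 0.182 to 0.758, 7.57 to 36.3 and 5.31 to 220 FPKM. Those of 4 basophil genes were 406 to 447, 858 to 1603 and 29.2 to 487 FPKM. The 4 erythroid genes summed to 2.41 to 3.79, 12.3 to 16.6 and 1.45 to 9.60 FPKM, and the 4 megakaryocyte genes to 479 to 563, 241 to 299 and 75.7 to 1210 FPKM. Genes within the basophil and megakaryocyte lists moved in opposite directions, so these sums do not follow a cell type. Mean levels in the 3 groups were 510, 230 and 22.1 FPKM for the megakaryocyte gene Itga2b but 1.56, 28.3 and 444 for Pf4. Among basophil genes they were 380, 181 and 22.8 for Cd200r3 but 38.7, 752 and 184 for Mcpt8. The second library with both vectors was the highest in all 5 receptor genes. It was also the highest of its group in mast cell (4336 against 972 and 744) and eosinophil markers (220 against 43.6 and 5.31). The same held for megakaryocyte (1210 against 75.7 and 115, with Pf4 alone at 1157), basophil (487 against 322 and 29.2) and erythroid markers. Its neutrophil markers were the lowest of the group. Its monocyte and macrophage sum, 12142 FPKM, lay between the 5211 and 14333 of the other libraries. Within that list it was the highest of its group in Csf1r, Adgre1, Cd68, Mertk, C1qa and C1qb, and not the highest in Ly6c2, Ccr2, Cd14, Lyz2 and Cx3cr1. Cd163 was highest in it too, but was too low to be tested, at 0.0159, 0.204 and 0.140 FPKM in the group. The NRASG12D mean of Cd163 was 0.429 FPKM. The third NUP98-NSD1 library, the lowest of its group in Fcgr2b, Fcgr3 and Fcgrt, was the lowest in neutrophil markers (1366 against 5464 and 5139) and the highest in mast cell markers. The part of these cell types in the receptor differences was not tested.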

How the data were processed

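RNA of 9 cultures was sequenced as paired reads of 50 bases. Per the methods and the submitters' processing notes, the authors aligned reads to GRCm38 (GRCm38.p6) with STAR 2.7.2a (TopHat and Bowtie2 are also named) and computed FPKM with Cufflinks 2.2.1 and GENCODE M22, and deposited 1 gene table of FPKM per library. The strand setting and the handling of reads with several alignments are not given in the sources used here. The members and gene lists were chosen with earlier results of these data known. Values of a repeated identifier were summed. A gene was tested if 3 or more of the 9 libraries reached 1 FPKM, and each pair of groups was fitted separately by limma 3.58.1 under R 4.3.3 (eBayes with trend) on log2(FPKM + 1). Depth was estimated from the step between low values. Between 83.9% and 87.7% of the low values came within 0.1 of whole fragments, and floors of 3 fragments cover counting error only. The depth estimate was tested on simulated data. So was the limma fit, for NUP98-NSD1 against NRASG12D and for double-transduced against NUP98-NSD1 cells. Coordinates and transcripts are from GENCODE M21, which shared 54867 identifiers and coordinates with the tables, and promoters from RefSeq. The named genes are the 5 members, the largest called rise and fall of each pathway list and a few others of it, the 2 nearest neighbours on each side of a locus and the 3 nearest profiles. The alternatives were another pseudocount, filter, scaling, joint fit, array weights, replicate block and leaving out each library, and counting the pathway lists under other scalings and the mast cell list without Cpa3 were added after the data had been seen. 1 gene of the regulator list was not analysed here. A further 4 genes that these rules name are not reported here.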

Additional observations from a re-analysis of the deposited data

How the results depend on the processing

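All 15 member differences kept their direction in each of 14 alternatives, 210 values in all, of which 3 lost and 16 gained a call. In NUP98-NSD1 against NRASG12D, 4 or 5 members were called throughout, and likewise in NUP98-NSD1+NRASG12D against NRASG12D. Where 5 were called, the added gene was Fcgr3, which was called lower in the former comparison and higher in the latter. In NUP98-NSD1+NRASG12D against NUP98-NSD1, where 1 member was called, the limma count was 0 without a filter on low values (4 at an unadjusted p under 0.05), 4 with all 9 libraries in a single fit, 4 with array weights and 0 to 3 when a library was left out. It was 0 without NUP98-NSD1 replicate 2 or 3 (4 and 4 at an unadjusted p under 0.05) and 3 without NUP98-NSD1+NRASG12D replicate 1 or 2. Over all genes, this comparison gave 1162 calls, 169 without a filter, 2251 in the single fit, 3500 with array weights and 283 to 2509 when a library was left out. NUP98-NSD1 against NRASG12D gave 7036 calls and 3065 in the single fit, and NUP98-NSD1+NRASG12D against NRASG12D 5173 calls and 2941 to 6327 when a library was left out. Median-ratio scaling turned 5689 higher and 1347 lower calls in NUP98-NSD1 against NRASG12D into 3059 and 3146, and quantile normalization into 2619 and 3447. In NUP98-NSD1+NRASG12D against NRASG12D, 3266 higher and 1907 lower calls became 2665 and 2574 or 2155 and 3064. The mean of Fcgr1 in NUP98-NSD1 cells moved from 10.2 to 9.16 FPKM under median-ratio scaling, more than its spread. Same-numbered libraries did not deviate together (mean correlations -0.0277, 0.016 and 0.00211), so the numbers were not used as pairs. The replicate block gave 6864, 4531 and 801 calls over all genes and 4, 5 and 1 calls among the members. The confidence bounds of Cufflinks, planned as an alternative, were not run because the tables used here hold none. The cause of these changes was not tested. Depth limits Fcgr4 and Fcgrt in NRASG12D cells, where at most about 5.97 and 5.31 fragments were seen.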
